A study of Dicentrarchus labrax with 10 samples.

Results

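Probes for 5 sequences of protein synthesis and protein breakdown were followed through the gonads of 10 European sea bass. They were chosen by name, with earlier results of these data known. On the synthesis side were elongation factor 1 alpha (CUST_21119_PI416070213) and 40S ribosomal protein Sa-like (CUST_21190_PI416070213). On the breakdown side were proteasome alpha subunit (CUST_7994_PI416070213), proteasome beta type 5 (CUST_13932_PI416070213) and proteasome 26S non-ATPase 10 (CUST_2938_PI416070213). All other probes with the same sequence identifier were added, which gave 15 probes, 3 for each of the 5 sequences, out of 24200 probes for 11705 sequence identifiers on the array. The names come from a supplementary list of the study, and the array files pair no probe with a gene. In that list a column of values appears shifted against the rows, so that the names themselves could be affected. Which copy of a gene family a probe reads was not analysed here. The sea bass gene table used here (assembly dlabrax2021) holds 2 elongation factor 1 alpha genes and 7 proteasome alpha genes, but 1 gene each for the other 3 members.

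Fish of both groups were kept at 17 °C until 20 days post hatch (dph). The low temperature (LT) group was then reared at 15 °C and the high temperature (HT) group at 21 °C until 60 dph, after which both were at 21 °C. At 170 dph, 5 fish per group with high cyp19a1a transcript levels, taken by the study as putative females, gave gonad RNA, which was labelled with 1 dye and hybridised fish by fish to custom Agilent arrays. The groups differed in tank as well as in temperature, 1 tank each, and the effects of these cannot be told apart; p-values compare fish of 2 tanks. The LT and the HT array of 1 replicate number shared a slide, always in the same order, and the array position cannot be told apart from temperature either.

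Protein is made on ribosomes and removed largely by the proteasome. Elongation factor 1 alpha carries aminoacyl-tRNA to the ribosome, and protein Sa is a component of the small ribosomal subunit. The 20S proteasome is a barrel whose outer rings are made of alpha subunits, which gate entry, and whose inner rings hold the beta subunits, of which type 5 carries the chymotrypsin-like activity. Non-ATPase 10, also called gankyrin, is an assembly chaperone of the 19S cap in yeast and mammals. A growing gonad both builds and turns over much protein, and elongation factor 1 alpha is also known in fish and frogs from young oocytes, which hold large stores of RNA and protein of the translation machinery.

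Values are log2 intensities after background correction and quantile normalization, and a level of one probe cannot be set against that of another. Background medians were 18 to 21 intensity units and medians of the negative control spots 50 to 59. All 15 probes were reliable in all 10 fish, meaning that the foreground was at least 2 times the background with no saturation or outlier mark on at least 50% of its spots, and all were well above background by the scanner's own measure. The proteasome beta type 5 and non-ATPase 10 probes were nevertheless dim, with raw intensities of 117 to 436 and 133 to 1201 for the listed probes, and the background offset shrinks fold changes at that level. The median difference between the 2 spots of a probe over the fish was itself 0.27 at the median of the 15 probes, on the log2 scale. That median was largest, at 0.81, for the listed ribosomal protein probe, of which 1 spot reading was flagged and left out. HT replicate 1 (HT 1) stood apart from the other arrays, with a mean correlation of 0.843 with the others against 0.920 to 0.947 for the remaining 9. It was taken to be the fish left out by the study, so each comparison is given for 9 fish (without HT 1) and for 10 fish. LT replicate 2 (LT 2) also stood apart from its group in marker levels, which are given below beside the result they move with.

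Between the groups, limma with Benjamini-Hochberg adjustment over 24200 probes called none of the 15 probes. A probe counted as called with all of a 1.2-fold change, an adjusted p under 0.05 and reliable readings in the fish compared. The background was the same, with 0 probes called (0%) over 9 fish and 0 (0%) over 10 fish, at lowest adjusted p of 0.0724 and 0.374 over all probes. The study, with the same thresholds, reported genes that differed between the groups in both directions. Why its calls were not reached here was not tested. Before adjustment, 5 of the 15 probes had a p below 0.05 and were lower in HT over 9 fish, where 7.61% of all probes were so. Those were 2 elongation factor 1 alpha and all 3 proteasome alpha probes. The 3 probes of a sequence are not independent, so counts over the 15 weigh each sequence repeatedly. Of the 5 listed probes, 1 for each sequence, 2 were lower at that p over 9 fish and 1 over 10 fish. Over 10 fish 2 of 15 remained, both of elongation factor 1 alpha, against 2.96% of all probes. None of the 15 was higher in HT at that p, against 10.8% of all probes over 9 fish and 4.12% over 10 fish. In none of the 15 did every HT fish lie below every LT fish, which was the case for 2.91% of all probes over 9 fish and 0.764% over 10 fish. The median log2 fold change of the 15 probes was -0.44 over 9 fish and -0.11 over 10 fish, while that of all probes was 0.00 and 0.01. For the 5 listed probes it was -0.44 and -0.16. The study's discussion mentions translation elongation factors or proteasomes as highly expressed after heat, without naming probes. Here the listed elongation factor 1 alpha and proteasome probes all had negative log2 fold changes in both sets of fish, none of them called.

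**Figure D1:**
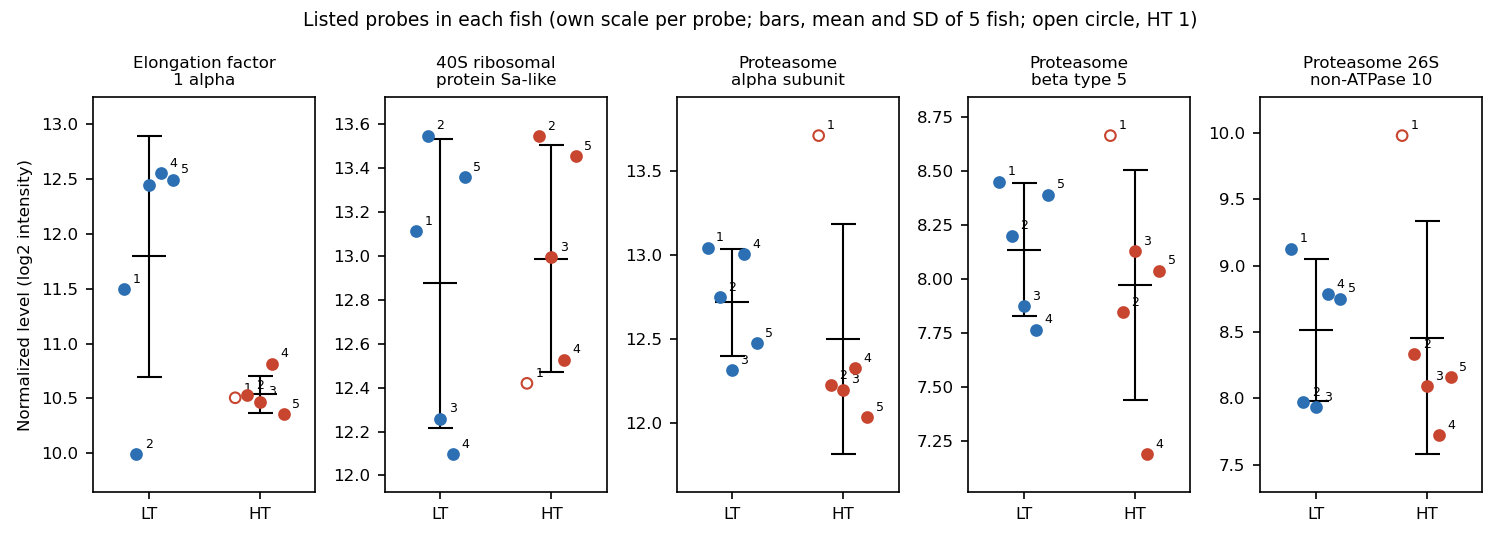
Normalized log2 intensity of the 5 listed probes in each LT and HT fish, with the replicate number beside each point, HT 1 as an open circle, and the mean and SD of 5 fish as bars. Each panel has its own scale: elongation factor 1 alpha lies between 10.36 and 10.82 in HT, and HT 1 is the highest HT fish for the 3 proteasome probes.

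Elongation factor 1 alpha was lower in HT gonads by the largest amount of the 5 sequences, and the spread lay in the LT group. The listed probe read 11.50, 9.99, 12.45, 12.55 and 12.49 in LT replicates 1 to 5. In HT replicates 1 to 5 it read 10.51, 10.53, 10.47, 10.82 and 10.36. The 5 HT fish thus lay within 0.46 log2 units, a 1.38-fold range, while the LT fish spanned 2.56 units, a 5.89-fold range. LT 2 read lower than any HT fish and the other 4 LT fish read higher than any of them, so the groups overlapped through LT 2 alone.

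The LT mean was 11.80 ± 1.10 (SD, n = 5) and the HT mean 10.54 ± 0.17 (SD, n = 5). The log2 fold change, HT minus LT, was -1.26 over 10 fish (standard error 0.45, 95% interval -2.27 to -0.25, adjusted p = 0.649, limma), equal to a level 2.40-fold higher in LT. Over 9 fish it was -1.25 (standard error 0.49, adjusted p = 0.234, limma). The two-sided exact permutation test over fish gave p = 0.0476 over 10 fish and p = 0.0794 over 9 fish, where the smallest p that either design allows is 0.00794.

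The other probes of this sequence did not give the same size. CUST_21118_PI416070213 had a log2 fold change of -1.10 over 10 fish, with an exact permutation p of 0.0476, and CUST_21120_PI416070213 one of -0.58, with an exact permutation p of 0.238. The difference lay mainly in LT replicate 5, which read 11.82 and 12.49 on the first and the listed probe but 10.40 on CUST_21120_PI416070213. In that fish the 2 spots of CUST_21120_PI416070213 differed by 1.70, the largest gap between spots among the 15 probes, and no spot of it was flagged. Across the 10 fish the 3 probes correlated with one another at r = 0.76 to 0.99.

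LT 2 decided the call for elongation factor 1 alpha. Without that fish the log2 fold change of the listed probe was -1.70 with an adjusted p of 0.00968 over the remaining 8 fish, and -1.71 with an adjusted p of 0.0209 when HT 1 was kept (limma). Each fish was left out in turn, and LT 2 is singled out by its value on this same probe. These p-values therefore describe its weight and are no test of a difference. Any other omission from the 9 fish gave adjusted p of 0.283 to 0.412 (limma). With LT 2 left out, 2.93% of all probes were called over 9 fish less LT 2 and 0.273% over 10 fish less LT 2. In either case 2 of the 15 member probes were among them. On the slides, HT minus LT was -0.99, 0.54, -1.98, -1.73 and -2.14 for slides 1 to 5, so the sign turned on the slide that held LT 2. With the slide as a replicate block, in which LT replicate 1 has no partner without HT 1 so that 9-fish values rest on 8 fish of 4 slides, the log2 fold change was -1.33 over 9 fish (adjusted p = 0.364) and -1.26 over 10 fish (adjusted p = 0.655), by limma.

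Of the 10 gonad- and muscle-named marker probes, 3 are given fish by fish, and were singled out after their values were seen. Anti-Mullerian hormone (amh), made by supporting cells of the gonad and associated with testis differentiation, read 9.32, 13.39, 7.93, 8.27 and 8.36 in LT replicates 1 to 5. In HT replicates 1 to 5 it read 7.25, 13.59, 13.19, 12.27 and 13.07. LT 2 and HT replicates 2 to 5 were thus the fish with high amh and they read 9.99 to 10.82 for elongation factor 1 alpha, against 11.50 to 12.55 in the 4 other LT fish. HT 1 was the exception, since it had the lowest amh of the 10 fish and an elongation factor 1 alpha level of 10.51. The transcription factor dmrt1, another testis-associated gene, was high and low in the same fish, though not in the same order within them. It read 8.61 in LT 2 and 8.19 to 8.79 in HT replicates 2 to 5, but 6.58 to 7.06 in the other LT fish and 7.02 in HT 1. Slow myosin heavy chain 3 read 8.58 in LT 2, 8.72 to 9.31 in HT replicates 2 to 5, and 6.52 to 7.10 in the other 5 fish. Its probe was well above background in 7 of the 10 fish and the dmrt1 probe in 8, so some of their low readings are near background.

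None of the 10 gonad- and muscle-named probes passed the adjusted test in either set of fish. The 3 given above differed by 3.58 (amh), 1.29 (dmrt1) and 1.96 (slow myosin heavy chain 3) over 9 fish. Their adjusted p was 0.166, 0.169 and 0.109 over 9 fish (limma). Over 10 fish it was 0.775, 0.695 and 0.603 (limma). The second amh probe read 6.48 to 6.91 in all 10 fish, was well above background in 3 of them and differed by 0.05 over 9 fish. SOX-8 differed by 0.03, myosin heavy chain by 0.08, sarcoglycan gamma by 0.03 and myosin light chain 1 by 0.18, with adjusted p of 0.845, 0.944, 0.914, 0.936 and 0.869 for these 5 probes (limma). Skeletal muscle myosin heavy chain differed by 0.32 (adjusted p = 0.175) and obscurin by -0.27 (adjusted p = 0.242), by limma. Of the 4 probes named for amh, dmrt1 and SOX-8, 4 had a positive difference over 9 fish and 3 over 10 fish, but only the brighter amh probe and dmrt1 differed by over 0.1, and 1, the brighter amh probe, was well above background in all 10 fish. Their summed level ranged from 9.12 to 13.47 in LT and from 8.89 to 13.65 in HT on the log2 scale. Intensities were added before the log, so the highest sums were nearly those of the brighter amh probe. It alone reached 13.39 in LT and 13.59 in HT. Of 6 muscle-named probes, 5 had a positive difference over 9 fish and 4 over 10 fish, with summed levels of 9.70 to 10.45 in LT and 9.74 to 10.70 in HT. Of all 24200 probes, 12198 had a positive difference over 9 fish and 12524 over 10 fish. The 4 gut and pancreas probes were all lower in HT in both sets of fish, with summed levels of 9.35 to 10.35 in LT and 9.07 to 9.62 in HT. Among all fish LT 2 was highest for elastase 1 precursor (9.12), elastase-like serine protease (8.76) and carboxypeptidase A1 (7.66). For mucin 2 it was the lowest LT fish (6.80). The part of other cells in the elongation factor 1 alpha difference was not tested, and in whole gonads fewer cells of a type and less RNA per cell cannot be told apart.

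**Figure D2:**
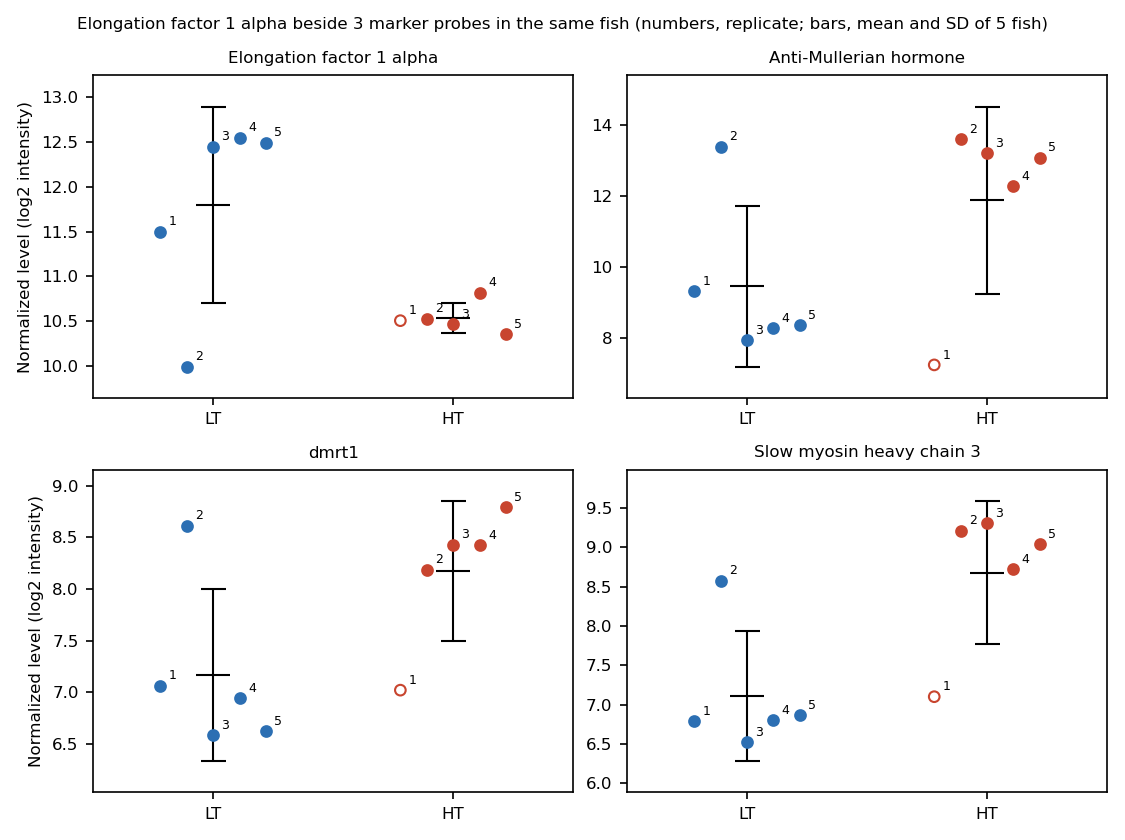
Normalized log2 intensity of elongation factor 1 alpha (the listed probe) and of amh, dmrt1 and slow myosin heavy chain 3 in the same 10 fish, with replicate numbers, HT 1 open, and bars for the mean and SD of 5 fish. LT 2 is lowest for elongation factor 1 alpha and the only LT fish above 13 for amh, and HT 1 is low for both.

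40S ribosomal protein Sa-like, the other synthesis sequence, showed no difference between the groups larger than the spread between fish. The listed probe read 13.11, 13.55, 12.26, 12.10 and 13.36 in LT replicates 1 to 5. It read 12.42, 13.54, 12.99, 12.53 and 13.45 in HT replicates 1 to 5. Both groups covered nearly the same range, with LT replicates 3 and 4 lowest among the LT fish and HT 1 lowest among the HT fish. The mean was 12.87 ± 0.66 (SD, n = 5) in LT and 12.99 ± 0.51 (SD, n = 5) in HT. The log2 fold change was 0.11 over 10 fish, with a 95% interval of -0.65 to 0.88 (adjusted p = 0.995, limma), and 0.25 over 9 fish, with an interval of -0.53 to 1.04 (adjusted p = 0.726, limma). These intervals leave room for a difference of over 0.5 log2 units in either direction. The other 2 probes gave log2 fold changes of -0.01 and 0.04 over 10 fish, and the 3 probes correlated at r = 0.96 to 0.98 across fish. Within slides the difference was lower in HT on 2 of 5 slides, from -0.69 on slide 1 to 0.73 on slide 3.

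The proteasome alpha subunit was lower in HT in the set of 9 fish, where 4 of the 5 LT fish stood above all HT fish on the listed probe. That probe read 13.04, 12.75, 12.32, 13.01 and 12.47 in LT replicates 1 to 5. In HT replicates 1 to 5 it read 13.71, 12.23, 12.20, 12.32 and 12.04. HT replicates 2, 3 and 5 lay below every LT fish, HT replicate 4 lay just above the lowest LT fish, and HT 1 lay above every fish of both groups. Over 9 fish the LT mean was 12.72 ± 0.32 (SD, n = 5) and the HT mean 12.20 ± 0.12 (SD, n = 4). The log2 fold change was -0.52 (standard error 0.16, 95% interval -0.89 to -0.16, adjusted p = 0.176, limma), a level 1.44-fold higher in LT. The exact permutation test gave p = 0.0397.

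All 3 probes of the alpha subunit behaved alike over 9 fish, with log2 fold changes of -0.45, -0.52 and -0.44 and exact permutation p of 0.0476, 0.0397 and 0.0317. Over 10 fish the same values were -0.11, -0.22 and -0.21, and the exact permutation p of the listed probe was 0.540. HT 1 thus decides the size of this difference. Within slides the listed probe was lower in HT by -0.52, -0.12, -0.68 and -0.44 on slides 2 to 5 and higher by 0.67 on slide 1, which held HT 1. With the slide as a replicate block the log2 fold change was -0.44 over 9 fish (adjusted p = 0.340) and -0.22 over 10 fish (adjusted p = 0.848), by limma. Array weights, an alternative in which arrays that fit less well count less, gave an adjusted p of 0.0312 over 9 fish. All 3 alpha subunit probes were then called, but so were 12.6% of all probes, and over 10 fish 1 of the 15 member probes, CUST_7995_PI416070213, against 8.38% of all probes.

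Proteasome beta type 5, the dimmest of the sequences, had an SD of 0.31 among LT and 0.53 among HT fish, a difference in spread that was not tested. The listed probe read 8.45, 8.20, 7.87, 7.77 and 8.39 in LT replicates 1 to 5, and 8.67, 7.85, 8.13, 7.19 and 8.04 in HT replicates 1 to 5. HT 1 was the highest and HT replicate 4 the lowest of the 10 fish, and the others overlapped. The log2 fold change was -0.34 over 9 fish (95% interval -0.83 to 0.16, adjusted p = 0.440, limma) and -0.16 over 10 fish (95% interval -0.73 to 0.41, adjusted p = 0.978, limma). The exact permutation p was 0.214 and 0.587. Without HT replicate 4 the value over 9 fish was -0.13. The other 2 probes gave -0.25 and -0.20 over 9 fish, and the 3 probes correlated at r = 0.97 to 0.99.

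Proteasome 26S non-ATPase 10 had its highest level in HT 1 by a wide margin. The listed probe read 9.13, 7.97, 7.93, 8.79 and 8.75 in LT replicates 1 to 5, and 9.98, 8.34, 8.09, 7.72 and 8.16 in HT replicates 1 to 5. The LT fish fell into a higher and a lower part, with replicates 2 and 3 low, and HT replicates 2 to 5 lay at or near that lower part. The log2 fold change was -0.44 over 9 fish (95% interval -1.03 to 0.16, adjusted p = 0.402, limma) and -0.06 over 10 fish (95% interval -0.99 to 0.88, adjusted p = 0.997, limma). The exact permutation p was 0.167 over 9 fish and 0.913 over 10 fish. Without LT replicate 1 the value over 9 fish was -0.28. The slides gave a higher HT value on slides 1, 2 and 3 (0.85, 0.37 and 0.16) and a lower one on slides 4 and 5 (-1.06 and -0.59), so that even without HT 1 the sign differed between slides.

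**Figure D3:**
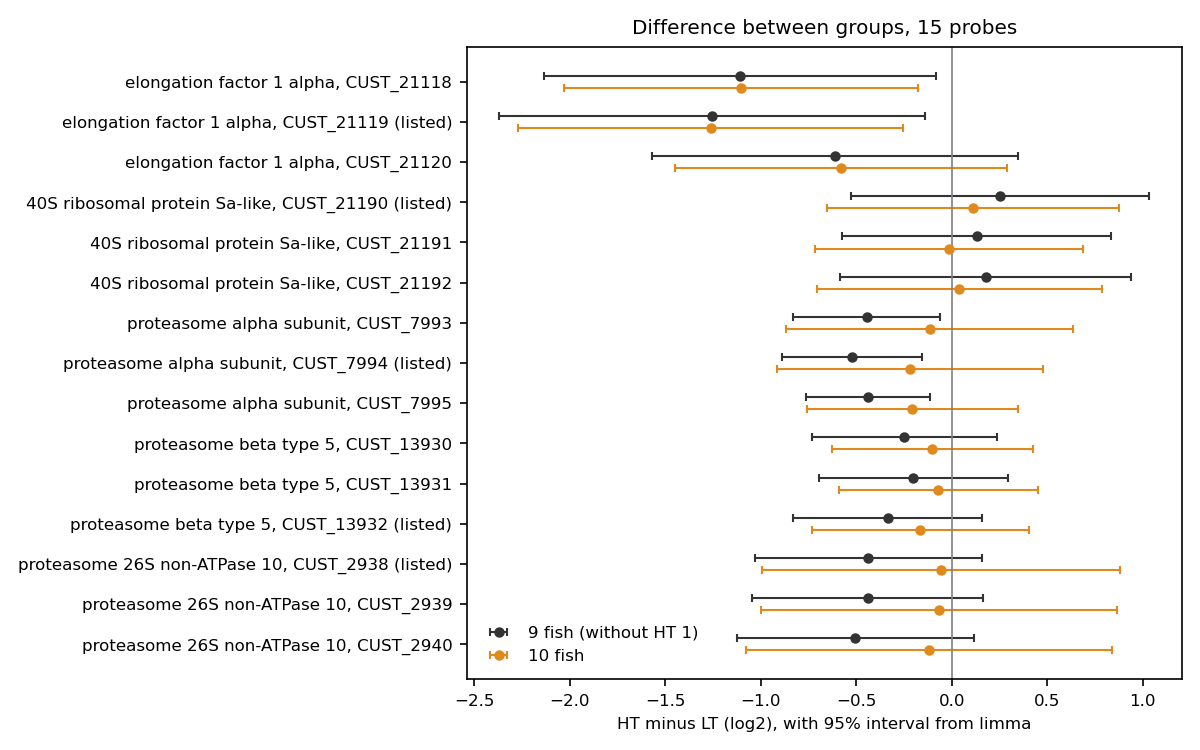
Difference between HT and LT gonads (log2, points) with its 95% interval from limma (bars) for each of the 15 probes, over 9 fish without HT 1 (dark) and over 10 fish (orange). Elongation factor 1 alpha keeps its place in both sets, and the proteasome probes move toward 0 when HT 1 is included.

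Set side by side, the 2 synthesis and the 3 breakdown members differed most in HT 1, the array that stood apart from the others. Relative to the LT mean of each listed probe, that fish read -1.29 for elongation factor 1 alpha and -0.45 for the ribosomal protein, but 1.00, 0.53 and 1.47 for the alpha subunit, beta type 5 and non-ATPase 10. In HT replicates 2 to 5 elongation factor 1 alpha was likewise below the LT mean, by -0.98 to -1.44. The 3 proteasome probes were below it in these 4 fish too, at -0.39 to -0.68 for the alpha subunit, -0.01 to -0.95 for beta type 5 and -0.18 to -0.79 for non-ATPase 10. The ribosomal protein went either way in them, from -0.35 to 0.67. LT 2, low for elongation factor 1 alpha at -1.81, read 0.03 and 0.06 for the alpha subunit and beta type 5 and -0.54 for non-ATPase 10. The wider lists given below did not divide by class in HT 1. Of the synthesis list, initiation factor 2B (11.90) and eif1ad (9.11) were highest in HT 1. Of the breakdown list, ubiquitin conjugating enzyme E2A was highest in it (11.19), but F-box only protein 2 (6.92) was lowest. Antizyme inhibitor 1 (7.79), by its name an inhibitor of a breakdown factor, was lowest in it as well.

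Across the 10 fish, 1 of the 10 pairs of listed probes was correlated at an adjusted p below 0.05, the alpha subunit with non-ATPase 10. Pearson's r was 0.85 (permutation p = 0.00334, adjusted over 10 pairs 0.0334) and Spearman's rho 0.60 (permutation p = 0.0735, adjusted 0.297). Without the 2 fish farthest from the median of the alpha subunit, HT 1 and LT replicate 1, r was 0.45, so the relation rests on those fish. Over 9 fish r was 0.65 (exact permutation p = 0.0560, adjusted 0.297), and none of the 10 pairs passed. Beta type 5 with non-ATPase 10 gave r = 0.72 (permutation p = 0.0214, adjusted 0.107) and rho = 0.58 (permutation p = 0.0890, adjusted 0.297). That r was 0.40 without HT 1 and HT replicate 4. The alpha subunit with beta type 5 gave r = 0.55 (permutation p = 0.107, adjusted 0.354), rho = 0.47 (permutation p = 0.180, adjusted 0.451), and r = 0.03 without HT 1 and LT replicate 1. The 3 pairs of the ribosomal protein with a proteasome probe had r from -0.40 to 0.27, at adjusted permutation p of 0.522 to 0.835. Without HT 1 its r was -0.25 with the alpha subunit, 0.54 with beta type 5 and 0.07 with non-ATPase 10. The adjusted exact permutation p were 0.636, 0.335 and 0.871. For the proteasome pairs r was then 0.29 to 0.65. As deviations from the group means, the ribosomal protein had r of -0.11, 0.75 and 0.22 in the same order, against -0.11 to 0.49 for the proteasome pairs. Elongation factor 1 alpha fell into 2 separate ranges of 4 and 6 fish, so no pooled r is given for its 4 pairs. As deviations from the group means over 9 fish, its r was -0.63 with the ribosomal protein and -0.34 to 0.26 with the proteasome probes. LT 2 still stands apart in those deviations. Of the 10 pairs 0 passed in that setting, at a lowest adjusted permutation p of 0.222. The differences within slides, 1 for each of 5 slides, were too few for a correlation adjusted for the slide.

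**Figure D4:**
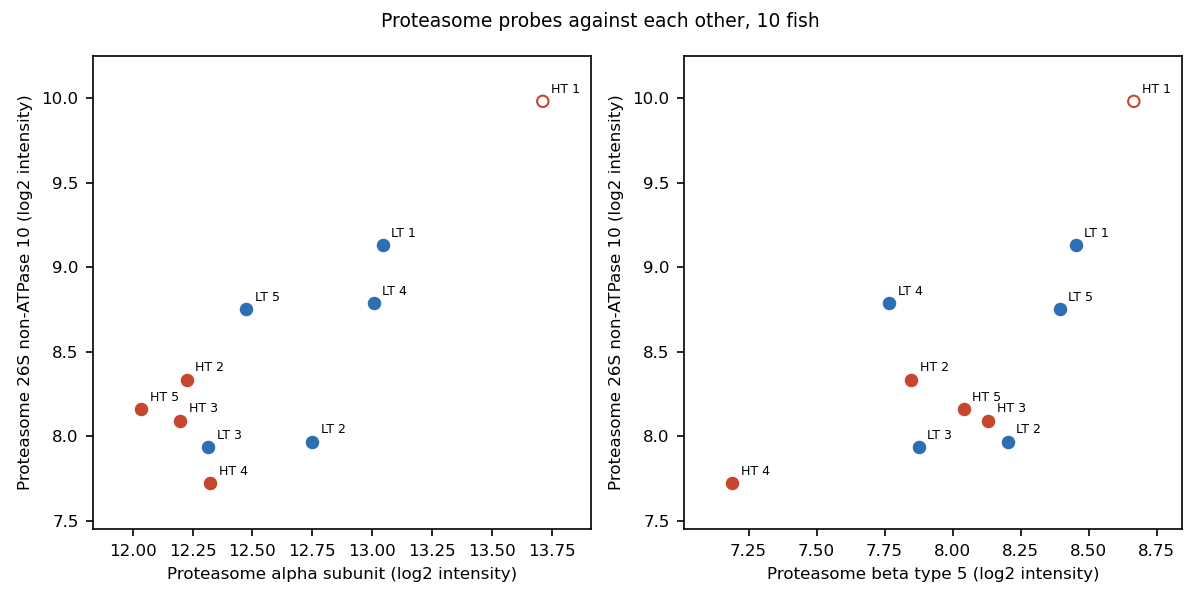
Normalized log2 intensity of proteasome 26S non-ATPase 10 against the alpha subunit (left) and beta type 5 (right), 1 point per fish, LT blue, HT red and HT 1 open. HT 1 lies at the upper right of both panels, with 9.98 for non-ATPase 10.

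The sequences of the study's list most like each member were found by Pearson's r over the 10 fish, among 175 other sequences of that list, as a description. For the proteasome alpha subunit all 3 were named for the small GTPase Ran, which acts in transport through the nuclear pore, or its binding proteins. They were ran binding protein 10 (r = 0.94), ranbp1 (0.91) and Ran itself (0.91). Over 9 fish these were 0.87, 0.79 and 0.77. Like the alpha subunit, Ran was highest in HT 1, at 14.82, against 12.74 to 13.75 in the other 9 fish. For non-ATPase 10 they were splicing factor arginine/serine-rich 3 (0.95), heterogeneous nuclear ribonucleoprotein G (0.94) and eif1ad (0.93). Over 9 fish these were 0.87, 0.86 and 0.85. For beta type 5 they were small nuclear ribonucleoprotein D2-like protein (0.92), an oxidoreductase with an NAD-binding domain (0.83) and again heterogeneous nuclear ribonucleoprotein G (0.81). Some of these probes were dim, with ran binding protein 10 at 6.58 to 7.42 in the 10 fish and the oxidoreductase at 6.55 to 6.95. The lowest values of the arrays were 5.68 to 6.01.

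The 2 synthesis members had other neighbours. For the ribosomal protein they were probable Bax inhibitor 1 (0.90), the mitosis-specific chromosome segregation protein SMC1 homolog (0.83) and apolipoprotein A-I binding protein (0.80). For elongation factor 1 alpha they were wnt1 inducible signaling pathway protein 1 (0.90), aquaporin 1 (0.76) and aquaporin 8 (0.71), where r again spans 2 separate ranges of fish. Aquaporin 1 read 13.15 in LT replicate 3 and 10.52 in LT replicate 5, but 7.45 to 9.36 in the other 8 fish. The aquaporin 8 probe was dim, at 6.63 to 7.40 across all fish.

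The other listed sequences of these pathways were few, and none passed the adjusted test in either set of fish. Counting the members by their brightest probe, the synthesis list held 6 sequences. Of these, 3 were lower and 3 higher in HT over 9 fish, with a median log2 fold change of -0.16, and 5 were lower over 10 fish, with a median of -0.06. Among all 24200 probes, 12002 were lower in HT over 9 fish and 11676 over 10 fish. None of the 6 sequences passed the adjusted test. Over 9 fish 2 of them had an unadjusted p below 0.05 (limma) and were lower, where 7.61% of all probes were so. Over 10 fish 1 did, against 2.96% of all probes, and it was elongation factor 1 alpha. This was also 1 of the 2 over 9 fish. The other was eukaryotic translation initiation factor 2B, which recharges initiation factor 2 with GTP. It read 10.82, 9.89, 10.22, 10.67 and 10.13 in LT replicates 1 to 5, and 11.90, 9.75, 9.93, 9.49 and 9.88 in HT replicates 1 to 5. Its log2 fold change was -0.59 over 9 fish (adjusted p = 0.191, limma) and -0.16 over 10 fish (adjusted p = 0.993, limma), and again HT 1 was the highest fish. The product named eif1ad read 9.11 in HT 1, above the 7.41 to 8.61 of the other 9 fish. Initiation factor 3 differed by 0.01 over 9 fish (adjusted p = 0.979, limma). The probe named eIF-2B precursor read 6.51 to 6.66 in all 10 fish, near the lowest values of the arrays (5.68 to 6.01), so it gave no view of a difference.

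The breakdown list held 7 sequences, of which 4 were lower and 3 higher in HT over 9 fish (median -0.23), and 5 were lower over 10 fish (median -0.16). Of all 24200 probes, 12002 were lower in HT over 9 fish and 11676 over 10 fish. None of the 7 sequences passed the adjusted test. Beside the 3 proteasome members the breakdown list held ubiquitin conjugating enzyme E2A, which hands ubiquitin to substrates. Its log2 fold change was 0.07 over 9 fish (adjusted p = 0.710, limma), and it read 11.19 in HT 1 against 10.32 to 10.63 in the other fish. F-box only protein 2, a substrate adaptor of a ubiquitin ligase, differed by 0.33 over 9 fish (adjusted p = 0.535, limma) and, unlike the proteasome probes, was lowest in HT 1, at 6.92. Ornithine decarboxylase antizyme, which brings its target to the proteasome without ubiquitin, differed by -0.23 (adjusted p = 0.474, limma). Antizyme inhibitor 1, which binds antizyme and by its name counters it, was in the breakdown list by name only. It differed by 0.01 (adjusted p = 0.988, limma) and was also lowest in HT 1, at 7.79.

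Sequences named for proteins that meet the new chain as it leaves the ribosome differed in both directions over 9 fish. Basic transcription factor 3 is also the beta subunit of the nascent polypeptide-associated complex, and 3 sequences carried its name. The isoform B probe was very bright, at 14.90 in HT 1 and 15.74 to 16.51 in the other 9 fish, and differed by 0.01 over 9 fish (adjusted p = 0.991, limma). It was reliable in 9 of the 10 fish. The btf3l4 protein probe read 9.81, 9.58, 10.38, 9.99 and 9.61 in LT replicates 1 to 5 and 10.82, 8.93, 9.31, 9.17 and 9.55 in HT replicates 1 to 5. Without HT 1 every HT fish lay below every LT fish, as for 2.91% of all probes. Its log2 fold change was -0.63 over 9 fish (adjusted p = 0.169, limma) and -0.32 over 10 fish (adjusted p = 0.927, limma). The basic transcription factor 3-like 4 probe went the other way, at 0.49 over 9 fish (adjusted p = 0.248, limma) and 0.22 over 10 fish, and was lowest in HT 1, at 9.24. Its name is the long form of btf3l4, so sequences under the same gene name differed in sign. Whether they read the same gene was not analysed. The 3 sequences of the TCP1 chaperonin, which folds actin and tubulin, differed by -0.16 to -0.08 over 9 fish, with adjusted p of 0.584 and above by limma. Of these, the T-complex protein 1 subunit alpha probe read 6.54 to 7.02 and was well above background in 4 of the 10 fish.

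**Figure D5:**
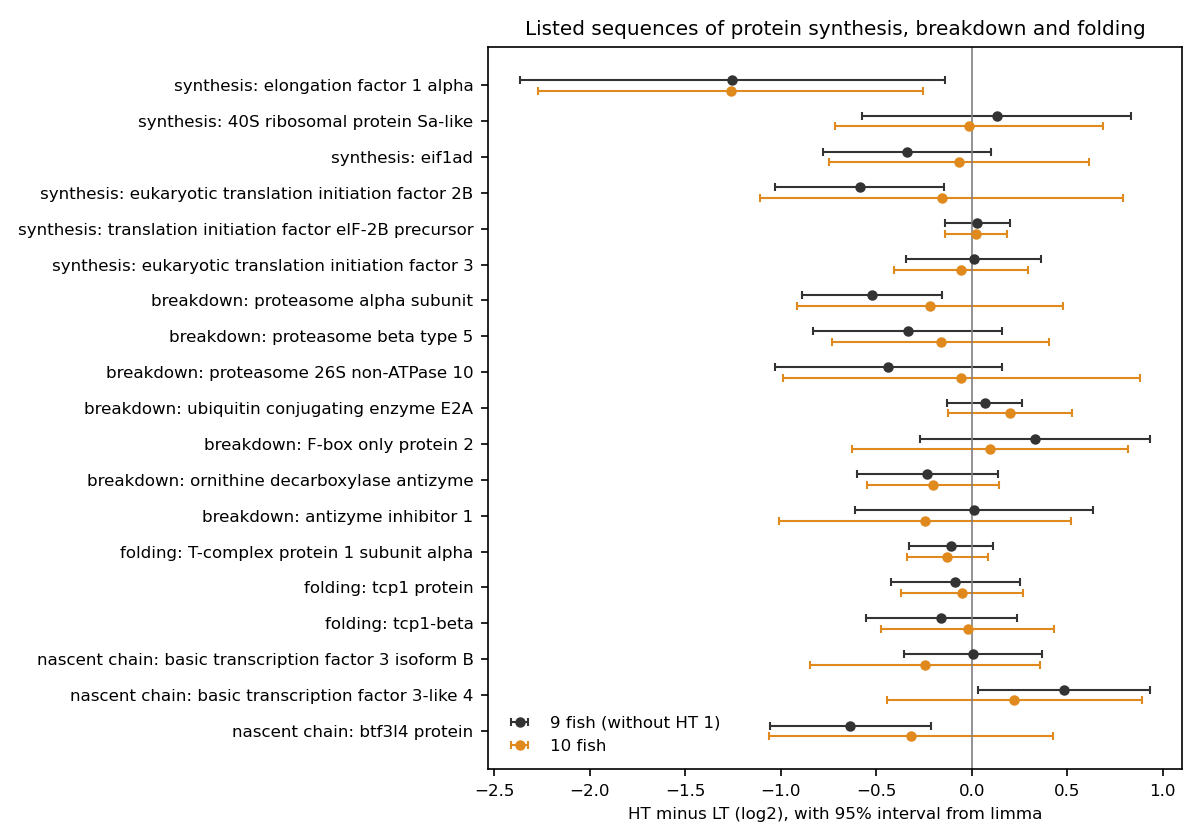
Difference between HT and LT gonads (log2, points) with its 95% interval from limma (bars) for the 19 listed sequences of synthesis, breakdown, folding and nascent chain factors, each by its brightest probe, over 9 fish (dark) and 10 fish (orange). Elongation factor 1 alpha lies farthest from 0, and the 10-fish intervals of initiation factor 2B and the proteasome sequences are wider than the 9-fish ones.

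The scaling of the arrays bore on these differences. Scaling by the 75th percentile after background correction moved the median over all probes, on the log2 scale, to 0.40 over 9 fish and 0.39 over 10 fish. Under it elongation factor 1 alpha was at -1.41 and the alpha subunit at -0.70 over 9 fish, with adjusted p of 0.0609 and 0.0508 by limma. Beta type 5 was at -0.06 and non-ATPase 10 at -0.22 under it, both nearer to 0 than with quantile normalization (-0.34 and -0.44). Against the moved median of 0.40, however, both lay farther below all probes than with quantile normalization, where the median was 0.00. With the processed signal scaled in the same way the median over all probes was 0.30, and elongation factor 1 alpha was at -1.36 and the alpha subunit at -0.47 over 9 fish (adjusted p = 0.133 and 0.175, limma). Over 9 fish all 4 member sequences with a negative difference, namely elongation factor 1 alpha and the 3 proteasome sequences, kept that sign in each of the 19 alternatives and omissions tried, and the ribosomal protein kept its positive sign.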

How the data were processed

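Gonad RNA of 5 LT and 5 HT fish was measured on 10 one-colour Agilent arrays, and samples were grouped by the labels. The authors deposited foreground, background and processed intensity per spot, not normalized between arrays (Feature Extraction 10.7.3.1 per the file headers, which differs from the version in the study's methods, as do the design and scanner), and a table of normalized log2 values, deposited for all 10 arrays and used as an alternative. The number of arrays limits the precision. Foreground medians were corrected with normexp (offset 50), control spots were removed, arrays were quantile normalized and spots were averaged without flagged ones (limma 3.58.1, R 4.3.3). Groups were compared with lmFit and eBayes, Benjamini-Hochberg adjusted over 24200 probes, and single probes with two-sided exact permutation tests. Correlations used exact pairings (9 fish) or 100000 permutations (10 fish) in Python 3.11.15 with scipy 1.17.1. Figures were drawn with matplotlib 3.10.9. The fits, the exact test and the correlation test were tested on simulated data or known values.

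The 5 members, the pathway and marker lists and the tests were chosen with earlier results of these data known. Named are the 5 listed probes and the other probes of their sequence identifiers, the list sequences, and for each member the 3 most correlated sequences of a supplementary list of 176 descriptions, each by its brightest probe. None of the probe names or sequence identifiers was found in the sea bass gene table, so names rest on that list alone, in which a column of values appears shifted against the rows. Probe and protein sequences were not analysed here. The fish omitted by the study was identified as HT replicate 1 from the columns of its heatmap. Slides were read from the file headers. Deviations from the group means correlated between the arrays of a slide at 0.37, 0.49, 0.08, -0.23 and 0.19, so the slide pairs the arrays by design but not in every pair by its values. Alternatives were a normexp offset of 0, the processed signal or normexp values scaled by the 75th percentile, cyclic loess, the deposited table, only reliable probes tested, flagged spots kept, trended robust variances, array weights, the slide as a block, and each fish left out; for counts of calls also no fold change minimum and no reliability filter, and for correlations deviations from the group means.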

Additional observations from a re-analysis of the deposited data

Results flagged for a closer look

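A gap of 1 fish to the rest of its group beyond Dixon's critical value was looked for in 60 groups of 4 or 5 fish, of the 15 member probes and 5 list sequences, and found in 7. Chance flags about 1 in 20 groups, and probes of one sequence are not independent. In 6 of the 7 it was HT 1, higher than the other HT fish. For the proteasome alpha subunit HT 1 read 13.57, 13.71 and 12.42 on the 3 probes, where the other HT fish reached 12.16, 12.32 and 11.47. For proteasome 26S non-ATPase 10 it read 9.98 and 9.83 on CUST_2938_PI416070213 and CUST_2940_PI416070213, above 8.34 and 8.05, the highest of the other 4. For eukaryotic translation initiation factor 2B it read 11.90, above 9.93. Within HT replicates 2 to 5, replicate 4 read 7.56 on CUST_2940_PI416070213, below the 7.98 to 8.05 of the other 3.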

How the results depend on the processing

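With 4 or 5 fish a group, the 95% intervals of the listed probes were 0.73 to 2.23 log2 units wide over 9 fish. The paired check, the slide as a replicate block, changed no call: 0 probes were called with it over 9 and over 10 fish. Over 9 fish, 2445 probes were called with 75th percentile scaling of the processed signal, 1747 with that scaling after normexp, 3045 with array weights, and 0 to 710 with 1 fish left out, against 0. Over 10 fish the counts were 1, 540, 2029 and 0 to 66. Array weights put the alpha subunit past the threshold over 9 fish (-0.54), and the btf3l4 protein probe as well (-0.59, adjusted p = 0.0422). Leaving out 1 fish put elongation factor 1 alpha between -1.70 and -1.07 over 9 fish and between -1.71 and -1.07 over 10 fish, past the threshold without LT 2. The sign turned over 10 fish for non-ATPase 10 with the scaled processed signal (0.0514), scaling after normexp (0.126) and cyclic loess (0.0426), and with 1 fish left out (-0.436 to 0.128). It turned for beta type 5 with scaling after normexp (0.0747) and with 1 fish left out (-0.336 to 0.0329), and for the ribosomal protein with scaling after normexp (-0.0354) and with 1 fish left out (-0.0815 to 0.281). Among the list sequences it turned over 10 fish for eif1ad (0.0993, 0.213 and 0.0142 with the 2 scalings and cyclic loess, -0.339 to 0.0859 with 1 fish left out) and for initiation factor 2B (-0.586 to 0.0189 with 1 fish left out), and over 9 fish for ubiquitin conjugating enzyme E2A with scaling after normexp (-0.0877). The count of correlated pairs over 10 fish fell from 1 to 0 with either 75th percentile scaling and with cyclic loess, and was 0 to 1 with 1 fish left out (0 without LT replicates 1, 3 or 4 or HT replicates 1 or 3). With deviations from group means over 9 fish, r of the alpha subunit with beta type 5 was -0.11. The cause of these moves was not tested. The r of the alpha subunit with non-ATPase 10 left the threshold in the settings in which the count of pairs fell to 0.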
